A study of Mus musculus with 6 samples.

Results

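Major urinary proteins (Mups) are small secreted lipocalins that the mouse liver makes in large amounts and passes into the urine, and their transcripts were followed here in livers of insulin-resistant mice given insulin or its vehicle. The 10 genes were taken by symbol from the deposited count table, as Mup1, Mup2, Mup3, Mup7, Mup10, Mup11, Mup14, Mup17, Mup20 and Mup21, and make up 10 of its 54532 gene rows. The table held 38 other rows with a Mup symbol, 27 of them pseudogenes, and Mup22 under an older symbol. All animals were male C57BL/6J mice fed a high-fat diet (HFD) for 6 weeks from 8 weeks of age, the study's model of insulin resistance (IR), and no chow-fed group was among these 6 libraries. After a 16 h fast, 3 mice received insulin at 0.75 units/kg body weight by intraperitoneal injection (IR insulin) and 3 received the vehicle, bovine serum albumin (IR vehicle). Whole liver was collected after 6 h and sequenced as 1 RNA library a mouse, with 18449986 to 21827619 counted reads a library. The comparison asks whether Mup transcripts respond to an insulin injection once mice are insulin resistant.

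Mups carry small volatile molecules in a hydrophobic barrel and release them slowly from urine marks, where both the ligands and the proteins act as scent signals between mice. Transcription of the liver genes depends on pulses of growth hormone and is stronger in males than in females, and androgens, thyroid hormone and glucocorticoids also act on it. Mup20 encodes darcin, a male pheromone protein, and the product of Mup1 has been studied as a circulating factor in glucose and lipid metabolism. Most of the genes are recent duplicates of each other, so that many reads cannot be placed on one gene from sequence alone.

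All 10 genes lie on the minus strand of chromosome 4 in mouse build 38, within 2.08 Mb, are annotated as protein coding, and overlap no other annotated gene. In order along the chromosome they are Mup7 (60066469 to 60070475), Mup2 (60135932 to 60154289), Mup1 (60498012 to 60501960), Mup10 (60578260 to 60582199), Mup11 (60658466 to 60662411), Mup14 (61300023 to 61304000), Mup17 (61591929 to 61595871), Mup20 (62050234 to 62054158), Mup3 (62083476 to 62087342) and Mup21 (62147932 to 62150863). The longest transcript has 7 exons in 9 of them and 6 exons in Mup21. The coding sequences fall into 3 sets. Mup1, Mup2, Mup7, Mup10, Mup11, Mup14 and Mup17 were 98.3% to 99.4% identical to one another. Mup20 was 90.1% to 91.3% identical to these 7, and Mup3 and Mup21, which were 94.7% identical to each other, shared 82.1% to 84.7% with them. A stretch of 90 coding bases from exon 2, read from GENCODE release 21 transcripts, is printed for every gene. It was picked because it holds the most positions that vary among the 6 genes with a coding length of 540 bases. It holds 6 of their 14 varying positions, and no other window compared held more. Windows were not compared by how many genes they tell apart. Capitals mark bases that differ from the commonest base among the 6 genes with a coding length of 540 bases.
Mup1: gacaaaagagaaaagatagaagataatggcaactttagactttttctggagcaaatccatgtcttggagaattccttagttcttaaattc
Mup2: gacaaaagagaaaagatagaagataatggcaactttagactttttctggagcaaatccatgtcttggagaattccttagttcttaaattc
Mup11: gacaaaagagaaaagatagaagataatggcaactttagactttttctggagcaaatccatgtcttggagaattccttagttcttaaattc
Mup10: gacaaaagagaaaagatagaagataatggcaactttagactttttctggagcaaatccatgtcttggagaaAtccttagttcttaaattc
Mup14: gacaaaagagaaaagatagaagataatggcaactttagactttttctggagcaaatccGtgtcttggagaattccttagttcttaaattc
Mup7: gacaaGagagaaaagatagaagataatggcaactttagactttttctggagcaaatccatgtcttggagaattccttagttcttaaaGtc
Mup17: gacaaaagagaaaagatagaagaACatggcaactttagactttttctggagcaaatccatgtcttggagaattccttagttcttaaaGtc
Mup20: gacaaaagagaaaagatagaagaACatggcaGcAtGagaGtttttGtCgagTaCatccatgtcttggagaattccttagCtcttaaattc
Mup3: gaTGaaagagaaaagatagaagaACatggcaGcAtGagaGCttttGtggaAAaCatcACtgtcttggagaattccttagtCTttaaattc
Mup21: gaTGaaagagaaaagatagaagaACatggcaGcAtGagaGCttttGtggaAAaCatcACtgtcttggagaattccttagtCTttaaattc
Mup1, Mup2 and Mup11 were identical over this stretch, and so were Mup3 and Mup21 to each other. Mup10 and Mup14 differed from the commonest sequence at 1 base each, Mup7 at 2, Mup17 at 3, Mup20 at 11, and Mup3 and Mup21 at 17. The stretches lie at chr4:60069741-60069830 in Mup7, chr4:60139227-60139316 in Mup2, chr4:60501290-60501379 in Mup1, chr4:60581529-60581618 in Mup10, chr4:60661738-60661827 in Mup11, chr4:61303330-61303419 in Mup14, chr4:61595201-61595290 in Mup17, chr4:62053488-62053577 in Mup20, chr4:62086808-62086897 in Mup3 and chr4:62150203-62150292 in Mup21, all on the minus strand of build 38. Over whole transcripts, the share of 100-base windows found in no other annotated gene was 97.1% for Mup3, 95.5% for Mup21 and 61.2% for Mup20. It was 40.6% for Mup17, and between 2.66% and 18.4% for Mup7, Mup11, Mup10, Mup1, Mup14 and Mup2. The gene sharing most of the windows of Mup10 was Mup22, with 85% of them, and for Mup20 it was the pseudogene Mup-ps19, with 38.8%. How the counting program treated reads that match several genes is not given in the sources used here. Most of the Mup3 and Mup21 sequence is their own, and the division of reads among the 7 near-identical genes is uncertain.

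**Figure D1:**
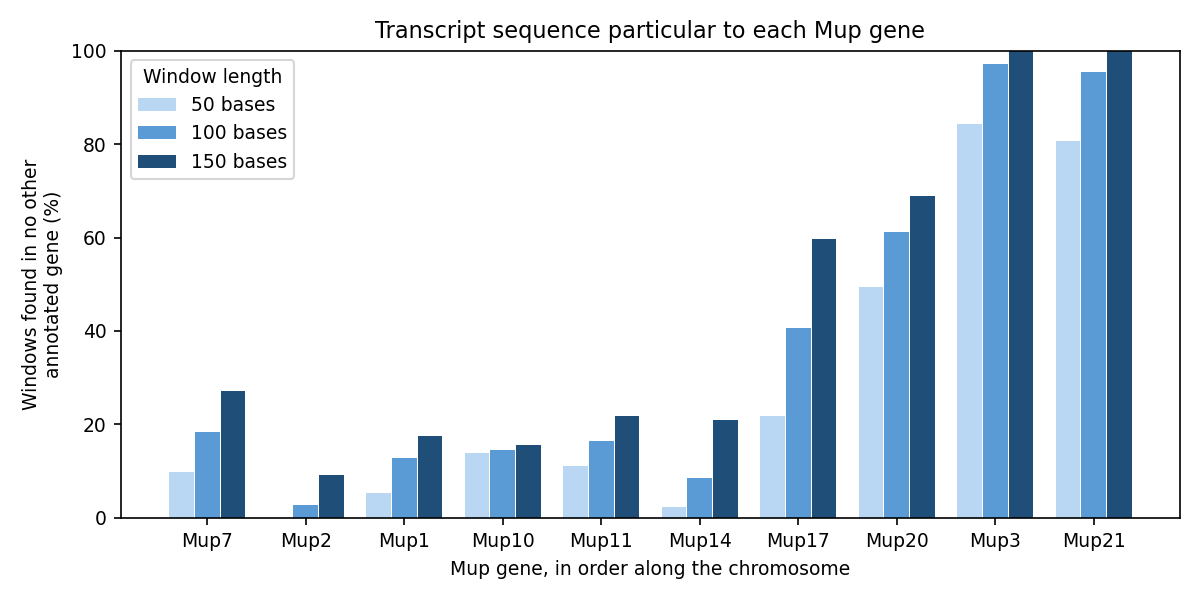
Percentage of windows of 50, 100 or 150 bases along the longest transcript that occur in no other annotated gene, for each Mup gene in chromosome order. Mup3 and Mup21 reach 100% at 150 bases, and Mup2 stands at 0% at 50 bases and 9.25% at 150 bases.

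Of the 6 libraries, 2 vehicle libraries stood apart. In IR vehicle replicate 2, counts depended on base composition, with a slope of -1.13 log2 units per 10 percentage points of GC against -0.064 to 0.19 in the other 5 libraries. The Mup transcripts hold 39.6% to 42.6% GC, below the median of 49.3% over tested genes, and the 1385 tested genes in that GC range had a median deviation of 0.76 log2 units in this library from the other 5. IR vehicle replicate 3 had a summed level of 3.34 CPM for neutrophil markers (26.5 to 70.8 CPM elsewhere) and of 0.19 CPM for adipocyte markers (25 to 154 CPM elsewhere). Hepatocyte markers summed to 64465 to 152830 CPM in vehicle and 53399 to 68412 CPM in insulin libraries. Albumin made up most of this sum, with 138550 CPM in IR vehicle replicate 2, and the markers did not move together there. In that library Ttr (4652 CPM) was also at its highest, Cps1 (4566 CPM) was within its range, and Apoa1 (3901 CPM), Tat (714 CPM) and Hnf4a (445 CPM) were at their lowest. B cell markers reached at most 2.88 CPM and muscle markers 0.095 CPM. The ranges for Kupffer cell, endothelial, stellate, bile duct and pancreas acinar markers overlapped between the groups. Erythroid markers (395 to 1181 CPM in vehicle, 292 to 448 CPM in insulin) and a salivary or lacrimal gland list led by an amylase (294 to 667 against 221 to 244 CPM) were highest in IR vehicle replicate 2. The part of any of these in the Mup values was not tested. Fewer cells of a type and less RNA per cell cannot be told apart in whole liver.

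No Mup gene passed an adjusted p of 0.05 between the groups, and 2 of 10 passed an unadjusted p of 0.05. These were Mup20, at 0.49-fold of vehicle with insulin, and Mup10, whose difference came from 1 vehicle library. The level of Mup3, the most abundant of the family, was lower in all 3 insulin livers than in any vehicle liver, but did not pass by edgeR. With 3 mice against 3, an exact permutation test over the 6 samples cannot give a two-sided p below 0.1, and it gave that value for Mup3 and Mup20 and between 0.2 and 1 for the other 8 genes. Among all 13377 genes tested by edgeR's quasi-likelihood test, 2.86% had an unadjusted p under 0.05, and 1.86% had it with a lower value after insulin, as both Mup genes did. No gene of the table had an adjusted p under 0.05 by edgeR (383 passed 0.05 before adjustment) or by DESeq2 (548 of 23025, or 2.38%, did). The study called a gene when its log2 fold change reached 0.35 in either direction and p, not adjusted, was under 0.05, and by edgeR the same 2 Mup genes and 2.86% of all genes met both criteria. The study itself used DESeq2, by which 3 Mup genes met them, Mup3 (-0.77), Mup11 (-1.51) and Mup20 (-1.03), each with an adjusted p of 0.989, and which gave no p for Mup10.

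**Figure D2:**
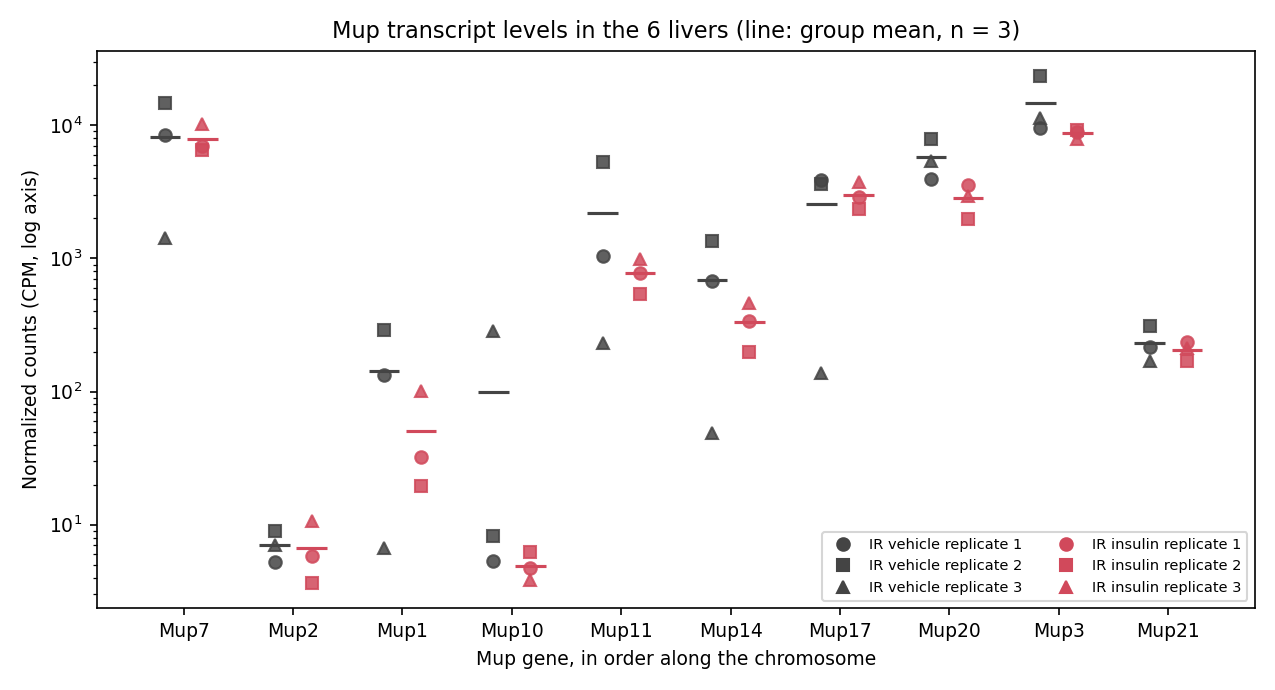
Normalized counts (CPM, log axis) of the 10 Mup genes in chromosome order, with each library as a point, vehicle in grey and insulin in red, and group means (n = 3) as lines. The groups do not overlap for Mup3 and Mup20, and IR vehicle replicate 3 (grey triangles) is far below the other libraries for Mup17 at 137 CPM and far above them for Mup10 at 286 CPM.

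Mup3 encodes a form of the protein whose gene stands apart from the main cluster in sequence. Its level was 9616, 23443 and 11406 CPM (counts scaled to a common library size) in IR vehicle replicates 1, 2 and 3, and 8942, 9294 and 7892 CPM in IR insulin replicates 1, 2 and 3. Every insulin library was below every vehicle library, but the lowest vehicle and highest insulin values were close together. Group means were 14822 ± 7520 CPM in vehicle and 8709 ± 729 CPM in insulin (SD, n = 3). The log2 fold change by edgeR was -0.77 ± 0.40 (SE, adjusted p = 0.852). Without IR vehicle replicate 2 it was -0.27 ± 0.27 (adjusted p = 0.898), and with an offset for GC content -0.41 ± 0.30 (adjusted p = 0.932). It was -1.0 ± 0.37 without IR vehicle replicate 1 (adjusted p = 0.506) and then passed 0.05 before adjustment, as 1349 of all 13750 genes tested did. By DESeq2 with all libraries it passed as well.

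Mup20, the gene of darcin, was at 3956, 7889 and 5442 CPM in the vehicle libraries and at 3581, 1989 and 2927 CPM in the insulin libraries. The groups did not overlap, and IR vehicle replicate 3 was not set apart from the others here. The means were 5762 ± 1986 and 2832 ± 801 CPM (SD, n = 3). The log2 fold change was -1.02 ± 0.37 by edgeR (adjusted p = 0.852). It no longer passed 0.05 before adjustment without IR vehicle replicate 2, at -0.73 ± 0.32 (adjusted p = 0.891), without IR insulin replicate 2, at -0.82 ± 0.44 (adjusted p = 0.985), without IR insulin replicate 3, at -1.04, or with the GC offset, at -0.73 ± 0.32 (adjusted p = 0.932). Non-overlap with lower values after insulin was found for 2 of 10 Mup genes, Mup3 and Mup20, and for 6.04% of all tested genes (12.3% in either direction). Mup-ps19, the pseudogene that shares windows with Mup20, had a log2 fold change of -0.89 ± 0.36 (adjusted p = 0.852) and passed 0.05 before adjustment.

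Mup21, the closest relative of Mup3, was at 215, 309 and 171 CPM in vehicle and 235, 169 and 213 CPM in insulin libraries. Its groups overlapped, and the log2 fold change was -0.17 ± 0.29 (adjusted p = 0.882). The ratio of Mup20 to Mup3, which lie next to each other, was 0.41, 0.34 and 0.48 in vehicle and 0.40, 0.21 and 0.37 in insulin libraries, and the groups overlapped.

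Among the 7 near-identical genes, Mup7 was the most abundant. Its level was 8480, 14772 and 1415 CPM in vehicle and 7012, 6555 and 10171 CPM in insulin libraries. The low value of IR vehicle replicate 3 widened the vehicle range around all insulin values, and the log2 fold change was -0.06 ± 0.70 (adjusted p = 0.985). Its sign depended on the average taken, since the difference of mean log2 CPM was 0.47. Mup17 was at 3914, 3612 and 137 CPM in vehicle and 2886, 2362 and 3747 CPM in insulin libraries, with a log2 fold change of 0.23 ± 0.91 (adjusted p = 0.949), the only fitted value above 0 among the 10 genes.

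Mup11 was at 1045, 5339 and 233 CPM in vehicle and 784, 536 and 994 CPM in insulin libraries. IR vehicle replicate 2 was above and IR vehicle replicate 3 below all other livers, and the log2 fold change of -1.52 ± 0.93 (adjusted p = 0.852) turned to 0.27 ± 0.58 (adjusted p = 0.942) without IR vehicle replicate 2. Mup14 showed the same layout, at 679, 1351 and 48.8 CPM in vehicle and 341, 197 and 465 CPM in insulin libraries (-1.05 ± 0.91, adjusted p = 0.852). Mup1, at 133, 289 and 6.72 CPM in vehicle and 32.0, 19.5 and 101 CPM in insulin libraries, varied widely within both groups (-1.49 ± 1.09, adjusted p = 0.852). Its SD of log2 CPM among the 3 insulin livers was 1.21, larger than in 99.4% of tested genes, while the median gene had 0.18.

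Mup10 was near the bottom of the range in 5 livers. Counts were 101, 134 and 5993 in the vehicle libraries and 105, 144 and 83 in the insulin libraries, or 5.34, 8.23 and 286 CPM against 4.73, 6.23 and 3.83 CPM. The 5993 counts of IR vehicle replicate 3 alone set the difference, and the other vehicle values overlapped those of the insulin group. The fitted log2 fold change was -4.34 ± 1.45 (adjusted p = 0.852). Without IR vehicle replicate 3 it was -0.46 ± 0.34 (adjusted p = 0.542). Mup2 had 5.23, 8.90 and 7.06 CPM in vehicle and 5.85, 3.68 and 10.6 CPM in insulin libraries (-0.07 ± 0.42, adjusted p = 0.966). Per length, Mup2 was the least abundant by the mean of the 6 libraries, but Mup10 exceeded it in only 3 of 6.

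IR vehicle replicate 3 differed from the other livers in most of the near-identical genes. Relative to the median of the other 5 libraries on the log2 CPM scale, 5 of the 10 genes were lower by more than 2 units and 1 was higher by more than 2. Mup17 was at -4.72, Mup1 at -3.89, Mup14 at -3.25, Mup7 at -2.58 and Mup11 at -2.09, whereas Mup10 was at 5.72. No other tested gene had a deviation as high as that of Mup10 in this library, and 17 of 13377 genes had one as low as that of Mup17 or lower, itself included. The median absolute deviation over all tested genes was 0.35. Mup3 (0.30), Mup20 (0.60), Mup21 (-0.34) and Mup2 (0.27) stayed within 1 unit. The 20 tested genes of other families within 1 Mb of the Mup genes, chosen after values were seen, deviated by -1.95 to 0.39 in the same library, with a median of -0.06. Mup22, which shares most of the Mup10 sequence and is listed under an older symbol (Gm21320 at 60817589 to 60821463, matched by its identifier and named after its values were seen), did not stand apart in it, at 424, 132 and 218 CPM in vehicle and 69.9, 720 and 543 CPM in insulin libraries. In IR vehicle replicate 2, by contrast, all 10 genes were above the median of the others, by 0.32 for Mup17 to 3.17 for Mup1. Tested genes in the same GC range had a median deviation of 0.76 in that library. Mup10 (0.61), Mup2 (0.60), Mup21 (0.54) and Mup17 were below this value, and the rest of the Mup genes above it.

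**Figure D3:**
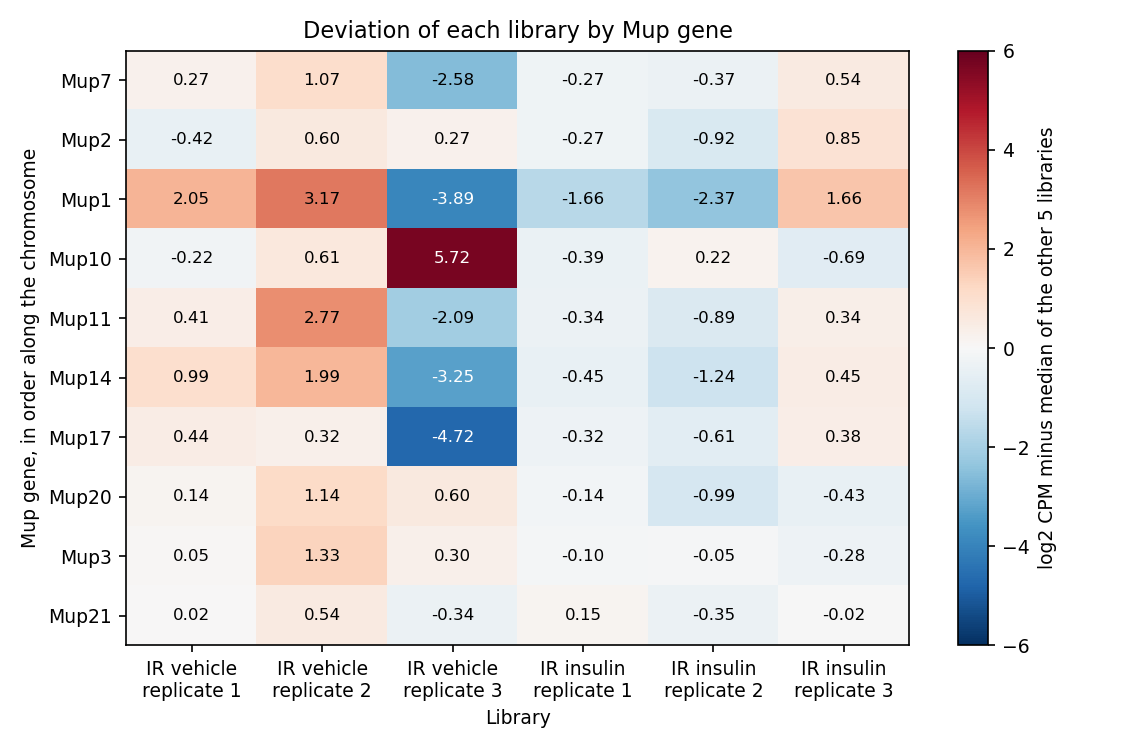
Deviation of each library from the median of the other 5 libraries, in log2 CPM, for each Mup gene in chromosome order, with red above and blue below. IR vehicle replicate 3 has both the highest value, 5.72 for Mup10, and the lowest, -4.72 for Mup17, and the column of IR vehicle replicate 2 is positive throughout.

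Because reads can be divided wrongly among near-identical genes, the 10 genes were also summed. The sum took 2.88%, 4.72% and 1.86% of all counts in IR vehicle replicates 1, 2 and 3, and 2.49%, 2.24% and 2.90% in IR insulin replicates 1, 2 and 3. Exact binomial 95% intervals of these shares were at most 0.00938 percentage points to either side, and cover counting error only. On the scaled level, the sum was 28048, 57021 and 19153 CPM in vehicle and 23824, 21132 and 26525 CPM in insulin libraries. All 3 insulin values lay inside the range of the vehicle group. The means were 34741 ± 19801 and 23827 ± 2696 CPM (SD, n = 3), a log2 ratio of -0.54 for which no test was made. Without IR vehicle replicate 2 the log2 ratio was 0.017, without IR vehicle replicate 3 it was -0.84, and without both -0.23. With the GC offset it was -0.19. Summing every row with a Mup symbol gave -0.36, and -0.35 with the Mup22 row added.

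The sum was made of different genes in different livers. Mup3, Mup20 and Mup21 together gave 49.2%, 55.5% and 88.9% of it in vehicle libraries and 53.6%, 54.2% and 41.6% in insulin libraries. In IR vehicle replicate 3, Mup3 gave 59.6% and Mup20 28.4% of the sum, against 29.8% to 44.0% and 9.41% to 15.0% in the other 5 libraries. Mup7 gave 7.39% there and 25.9% to 38.3% elsewhere. The 3 distinct genes summed to 13788, 31641 and 17019 CPM in vehicle and 12758, 11452 and 11032 CPM in insulin libraries. The groups did not overlap, which follows from Mup3 and Mup20, since these make up nearly all of this sum. Its log2 ratio was -0.83, and it was -0.39 without IR vehicle replicate 2 and -0.95 without IR vehicle replicate 3. The 7 near-identical genes summed to 14261, 25380 and 2134 CPM in vehicle and 11066, 9680 and 15493 CPM in insulin libraries, and the groups overlapped.

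**Figure D4:**
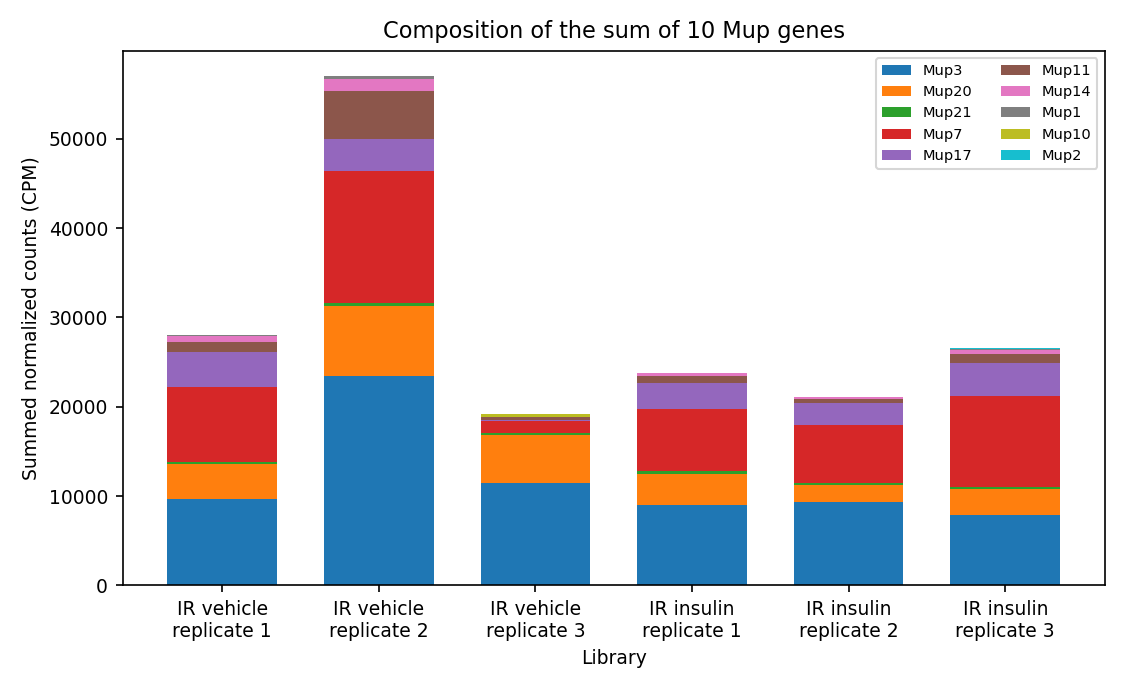
Stacked CPM of the 10 Mup genes in each of the 6 libraries. IR vehicle replicate 2 has the highest sum, 57021 CPM, and IR vehicle replicate 3 the lowest, 19153 CPM, most of which is Mup3 and Mup20.

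Of the 10 fitted log2 fold changes, 9 were below 0, with a median of -0.90, while 51.4% of all tested genes were below 0 and their median was -0.017. This tally depended on IR vehicle replicate 2, without which 5 of 10 were below 0 with a median of -0.013. With the GC offset, 6 of 10 were below 0 with a median of -0.53. The vehicle libraries that stood apart moved these values in opposite directions. Without IR vehicle replicate 3, 4 Mup genes had an unadjusted p under 0.05, against 6.51% of all genes tested then. They were Mup14 (-1.60 ± 0.43), Mup11 (-2.05 ± 0.62), Mup1 (-2.05 ± 0.68) and Mup20 (-1.06 ± 0.39), each with an adjusted p of 0.527. Mup14 was at -0.12 ± 0.89 and Mup1 at -0.46 ± 1.09 without IR vehicle replicate 2, and neither passed. Without IR vehicle replicate 2, only Mup10 did, with a log2 fold change of -4.87 ± 1.27 (adjusted p = 0.891), against 3.74% of all genes. Without both, 1 gene did, Mup14, against 2.17% of all genes. With the GC offset, Mup10 alone did (3.52% of all genes).

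**Figure D5:**
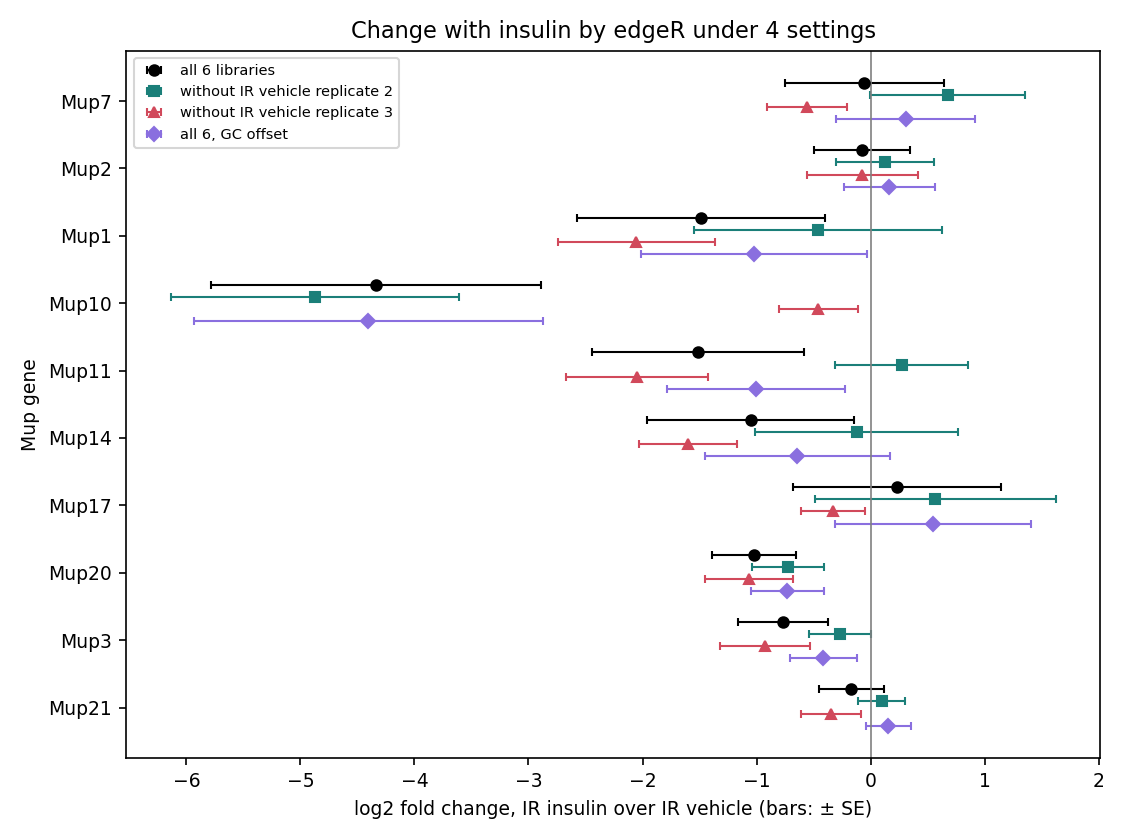
Log2 fold change of IR insulin over IR vehicle by edgeR for each Mup gene, with bars for ± SE, from all 6 libraries, without IR vehicle replicate 2, without IR vehicle replicate 3, and with an offset for GC content. Mup20 lies below 0 in all 4 settings, and Mup11 goes from -2.05 without IR vehicle replicate 3 to 0.27 without IR vehicle replicate 2.

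Levels were compared between genes per kilobase of the longest transcript. The mean over the 6 libraries was 11957 CPM per kb for Mup3, 7810 for Mup7, 4631 for Mup20, 2995 for Mup17, 1601 for Mup11, 555 for Mup14, 323 for Mup21, 105 for Mup1, 56.5 for Mup10 and 7.43 for Mup2. The mean of Mup10 rests on IR vehicle replicate 3, at 308 CPM per kb against 4.13 to 8.87 elsewhere. Every pair of neighbours in this order overlapped in range over the libraries. Mup11 exceeded Mup14, and Mup21 exceeded Mup1, in 6 of 6 libraries, and the other neighbouring pairs kept their order in 3 to 5 of 6. By mean CPM, Mup3 was 6th and Mup7 11th among the tested genes. For comparison, albumin (Alb) was at 48158, 138550 and 72891 CPM in vehicle and 48998, 52960 and 38255 CPM in insulin libraries, transthyretin (Ttr) at 3847 to 4652 against 2676 to 3425 CPM, and apolipoprotein E (Apoe) at 4457 to 21069 against 16859 to 18607 CPM.

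Some Mup rows outside the 10 were abundant as well. The 10 genes held 72.0% to 88.8% of the counts of all Mup rows, Mup22 included. The share was 88.8% and 88.1% in IR vehicle replicates 2 and 3, and 72.0% to 74.0% in the other libraries. The sum of the 10 genes thus held a different part of the family in different libraries. Mup12 was at 5026, 1757 and 1294 CPM in vehicle and 6326, 3544 and 5234 CPM in insulin libraries. Mup15 was at 3400, 3168 and 7.92 CPM in vehicle and 494, 1701 and 2774 CPM in insulin libraries, with its lowest value in IR vehicle replicate 3, like Mup17. Mup9 was likewise lowest there, at 44 counts against 930 to 3108 in the other 5 libraries. Mup16 was at 367, 435 and 146 CPM in vehicle and 509, 785 and 751 CPM in insulin libraries. Its groups did not overlap, as those of 6.25% of tested genes did not with higher values after insulin, and its log2 fold change of 1.11 ± 0.42 (adjusted p = 0.852) had the opposite sign to that of Mup20, with a p under 0.05 before adjustment only. Mup8 ranged from 22 to 339 counts in vehicle and from 95 to 2047 counts in insulin libraries (2.37 ± 1.17, adjusted p = 0.852). Mup13 (-0.27), Mup18 (-1.61), Mup19 (0.80) and Mup6 (-0.89) did not pass 0.05 before adjustment, nor did the tested pseudogenes Mup-ps6, Mup-ps7, Mup-ps12, Mup-ps13, Mup-ps14, Mup-ps16 and Mup-ps21. Mup4, Mup5, Mup-ps8, Mup-ps9 and Mup-ps18 were counted in too few reads to be tested.

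RefSeq promoters of build 38, from 250 bases before to 50 bases after the annotated start, were found for 8 of the 10 genes, all but Mup1 and Mup20. Those of Mup10 and Mup17, the genes that deviated furthest and in opposite directions in IR vehicle replicate 3, and of Mup3, the most abundant gene, are shown on the strand of the gene. Capitals mark matches on either strand to TATATAA, a core promoter sequence, and to TGTTCT, which the glucocorticoid receptor binds.
Mup10: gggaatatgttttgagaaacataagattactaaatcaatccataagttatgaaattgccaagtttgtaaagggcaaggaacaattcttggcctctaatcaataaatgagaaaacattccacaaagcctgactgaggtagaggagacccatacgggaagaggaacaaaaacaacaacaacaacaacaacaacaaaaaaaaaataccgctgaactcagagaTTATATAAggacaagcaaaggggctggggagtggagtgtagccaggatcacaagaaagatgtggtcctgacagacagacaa
Mup17: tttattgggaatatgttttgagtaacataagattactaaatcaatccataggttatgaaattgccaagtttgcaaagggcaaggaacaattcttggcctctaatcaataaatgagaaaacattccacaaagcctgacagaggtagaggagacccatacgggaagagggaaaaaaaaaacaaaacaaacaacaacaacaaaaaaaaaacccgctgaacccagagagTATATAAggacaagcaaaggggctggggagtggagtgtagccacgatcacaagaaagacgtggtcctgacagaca
Mup3: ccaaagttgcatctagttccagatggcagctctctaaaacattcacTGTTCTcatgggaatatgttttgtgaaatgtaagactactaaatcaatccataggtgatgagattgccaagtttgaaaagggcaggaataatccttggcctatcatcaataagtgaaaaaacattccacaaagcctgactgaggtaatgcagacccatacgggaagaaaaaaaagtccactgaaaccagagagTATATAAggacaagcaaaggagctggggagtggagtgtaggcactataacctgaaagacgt
The Mup10 promoter lies at chr4:60582106-60582405, the Mup17 promoter at chr4:61595783-61596082 and the Mup3 promoter at chr4:62087268-62087567. Mup10 and Mup17 were identical at 94.6% of 295 aligned columns, and Mup3 was identical to them at 76.2% and 77.6%. TATATAA was found in 7 of 8 Mup promoters, all but Mup7, and in 3.22% of all 32544 promoters of the table. Its first base lay at -27 from the annotated start in Mup2, -25 in Mup17, -11 in Mup3, -8 in Mup21, -2 in Mup11 and 12 in Mup14, so that the windows are offset from one another. The Mup7 window aligned with that of Mup17 over 171 columns and ends before the place of this match. TGTTCT was found in Mup3 and Mup21, and in 18.9% of all promoters. The spaced sequence TTCNNNGAA, which STAT5 binds, was in none of the 8 and in 8.33% of all promoters. These matches describe the letters of a 300-base window.

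Genes that act on Mup transcription, or that share its sex bias or protein fold, were read from 4 lists. Of the regulators, receptors and transcription factors of the hormone pathways that act on the liver, 19 of 20 were tested and 1 had an unadjusted p under 0.05, against 2.86% of all genes. This was the prolactin receptor gene Prlr, at 48.8, 103 and 89.5 CPM in vehicle and 32.2, 50.0 and 38.2 CPM in insulin libraries (log2 fold change -1.0 ± 0.33, adjusted p = 0.852). The thyroid hormone receptor gene Thrb (-0.74 ± 0.32), the growth hormone receptor gene Ghr (-0.82 ± 0.38) and Igf1, a hormone gene induced by growth hormone (-0.52 ± 0.32), did not pass. The list median was 0.04.

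Of 20 genes with male-biased expression in mouse liver, 19 were tested and 3 had an unadjusted p under 0.05, each with lower values after insulin and no overlap between groups. Among all tested genes, 1.86% had lower values with such a p and 6.04% had lower values with no overlap. They were Keg1, a glycine acyltransferase-like gene (-0.87 ± 0.25), Ugt2b1, a glucuronosyltransferase (-1.05 ± 0.38), and Nudt7, a peroxisomal coenzyme A diphosphatase (-0.72 ± 0.30), each with an adjusted p of 0.852. Slco1a1, an organic anion transporter, was at -0.87 ± 0.46 and did not pass. The median of the list was -0.48, with 16 of 19 below 0 against 51.4% of all tested genes. Most of the list was high in IR vehicle replicate 2, the library with the GC dependence. Moxd1 was at 2.34, Cyp4a12b at 1.92, Slco1a1 at 1.76 and Ugt2b1 at 1.54 from the median of the other libraries. Only Selenbp2 (-0.84), Elovl3 (-0.40), Gstp1 (-0.28) and Cyp2u1 (-0.016) were below it. The part of this library in the tally was not tested. In IR vehicle replicate 3, genes of this list deviated in both directions. Moxd1 was at -7.08, the oxysterol hydroxylase gene Cyp7b1 at -3.18, Scara5 at -2.43 and Susd4 at -1.94. Cyp4a12a (-1.29), Selenbp2 (-1.11) and Cyp4a12b (-0.98) were lower as well. Serpina1e (1.34), Gstp1 (1.31), Keg1 (0.95) and Ugt2b1 (0.60) were higher than in the other libraries taken by their median. Cyp2d9 (0.19) and Hsd3b5 (-0.13) did not stand apart. Of all 13377 tested genes, 136 deviated there as low as Mup7 (-2.58) or lower, and 235 as low as Mup11 (-2.09) or lower.

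Of 20 genes with female-biased expression, 7 were tested and 1 had an unadjusted p under 0.05, against 2.86% of all tested genes. This was Fmo2, a flavin monooxygenase, at 6.29, 6.63 and 116 CPM in vehicle and 9.37, 3.46 and 3.60 CPM in insulin libraries (-2.98 ± 1.15, adjusted p = 0.852). As with Mup10, IR vehicle replicate 3 alone was high and the groups overlapped. Abcd2 (-1.30 ± 0.78), Cyp17a1 (-0.93 ± 0.64) and Sult1e1 (1.10 ± 0.79) did not pass, and the list median was -0.77. Of 12 other lipocalin genes, 9 were tested and 1 had an unadjusted p under 0.05, again against 2.86% of all tested genes. This was the complement subunit gene C8g (-0.57 ± 0.24, adjusted p = 0.852). The acute-phase gene Orm1 (0.86 ± 0.56), the retinol carrier gene Rbp4 (-0.43 ± 0.31) and Apom (-0.55 ± 0.42) did not pass, and the list median was 0.015.

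The genes whose pattern was most like that of the Mup sum were sought among 2496 genes of at least 50 CPM over the 6 libraries. They were Cmah (Pearson's r = 0.992, Spearman's rho = 0.943), Hspa4 (0.990 and 0.886), 4833439L19Rik (0.989 and 1), Psmd1 (0.989 and 0.943) and Usp47 (0.988 and 0.886). Without IR vehicle replicates 2 and 3, the libraries farthest from the median of the sum, r was 0.943, 0.836, 0.939, 0.924 and 0.802. These coefficients are a description of 6 libraries that share the depth and GC differences given above, and they were picked as the highest.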

How the data were processed

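RNA was sequenced from whole livers of 6 IR mice, 3 per group, each library being assigned to its group and number by its label. The deposited table held raw whole-number read counts per gene and library. By the methods of the study and the submitters' processing notes, libraries were made with a NEBNext Ultra kit, sequenced on an Illumina HiSeq and aligned with Bowtie2 v.2.2.3 to the mm10 genome (build 38). Neither the program that counted reads, nor its gene models, strand setting and handling of reads that match several genes, is given in the sources used here. The study's own test was DESeq2.

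Counts were tested with edgeR 4.0.16 (R 4.3.3) using TMM scaling and the quasi-likelihood test, after a filter requiring 10 counts in enough libraries and 15 in total, with Benjamini-Hochberg adjustment over 13377 genes. Exact two-sided permutation tests of mean log2 CPM were added for the 10 genes after the data were seen. Steps were tested on simulated data. DESeq2 1.42.0, limma 3.58.1 (voom) and other settings were alternatives. CPM were computed from scaled library sizes, and log2 CPM used a prior count of 2. Positions, exons, transcripts and GC content came from GENCODE release 21, in which 99.9% of identifiers were found, and promoters from RefSeq. The Mup genes and all gene and marker lists were chosen with earlier results of these data known. Besides the 10 genes, the text names other Mup rows with a group mean of at least 10 counts, the 4 genes of each list with the smallest p, the 5 genes most like the sum, and Alb, Apoe and Ttr. Deviations in list genes and genes beside the cluster were chosen after their values were seen. For 1 regulator gene no values are reported here.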

Additional observations from a re-analysis of the deposited data

How the results depend on the processing

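No Mup gene reached an adjusted p of 0.05 under any of the 15 alternatives run (DESeq2 gave no p for Mup10, at a log2 fold change of -4.35). The number with an unadjusted p under 0.05, and the number past the study's criteria, were 2 with all libraries and edgeR. They were 3 with DESeq2, 3 with no filter on low counts, 0 with voom and sample quality weights and 1 with the GC offset. Among all genes, 383 of 13377 had such a p with edgeR and 548 of 23025 with DESeq2. With no filter 742 of 23040 had it, with voom 213 of 13377 and with the GC offset 471 of 13367. When 1 library was left out, from 99 of 13621 genes (without IR insulin replicate 1) to 1349 of 13750 (without IR vehicle replicate 1) had it. The Mup counts were then 0 to 4. Leaving out IR vehicle replicates 2 and 3 together, an alternative chosen after seeing the data, gave 1. Mup20 kept a negative fold change in all 15, from -1.23 to -0.48 (adjusted p 0.481 to 0.9998), but its unadjusted p was above 0.05 in 7 of them. Mup7 changed sign with upper-quartile scaling (0.015), voom (0.31) and the GC offset (0.31), and ranged from -0.56 to 0.68 when libraries were left out. Mup2 (0.17) and Mup21 (0.16) changed sign with the GC offset, and Mup2 was 0.36 and Mup17 -0.38 without IR vehicle replicates 2 and 3. With single libraries left out, Mup1 ranged from -2.46 to -0.46, Mup14 from -1.60 to -0.12, Mup2 from -0.55 to 0.22, Mup11 from -2.05 to 0.27, Mup17 from -0.33 to 0.68, Mup21 from -0.35 to 0.10, and the log2 ratio of the sum from -0.84 to 0.017. In the same fits, the list counts with an unadjusted p under 0.05 ranged from 0 to 6 for the regulators and 1 to 6 for the male-biased genes. They ranged from 0 to 2 for the female-biased and 0 to 5 for the other lipocalin genes. Both counts of 6 came without IR vehicle replicate 3, when 6.51% of all genes passed. The 5 lipocalin genes passed without IR vehicle replicate 1, when 1349 of 13750 genes did. The causes were not tested.

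The labels number the replicates but do not say whether vehicle and insulin mice of the same number were matched. Vehicle and insulin libraries of the same number had correlations of -0.039 to 0.069 in their deviations from group means. Those of different numbers had -0.11 to 0.089. So few libraries cannot settle whether the mice were paired. With the replicate number as a block, 0 Mup genes had an unadjusted p under 0.05 or met the study's criteria, Mup7 was at 0.35 and the sum at -0.40. Mup genes with few counts, such as Mup2 with 85 to 230 counts, are limited by depth as well as by shared sequence.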
